A study of Homo sapiens with 12 samples.

Results

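In the authors' deposited tables of m6A windows from NOMO-1 leukaemia cells, 6655 of 296568 rows, 4 tables summed, shared at least 50 bases with a row of another gene on the opposite strand. They were chosen by position alone: the blocks of a row had to share those bases with the blocks of a row in the same table that lay on the other strand and carried another gene name. A row is a transcript window, made of blocks, in which RNA recovered by an m6A antibody (IP) was compared with RNA before recovery (input). The same place therefore entered a table once for each gene, and the question was how far the values of the paired rows were separated by strand.

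NOMO-1 is an established human acute myeloid leukaemia (AML) line. The cells carried the guide sgMETTL16-1 or sgMETTL16-2, both of which are labelled METTL16 knockout, or the control guide sgNS, and each guide had 2 input and 2 IP libraries, 12 in all. The labels give no treatment beyond the guides, and puromycin was in the medium of all groups. The labels do not say whether replicates came from separate cultures or clones. The deposited tables give no expression values, so the loss of METTL16 was not checked here. The 4 tables compare 1 knockout guide with sgNS for replicate number 1 or 2, and tables may share sgNS libraries, so their values are given side by side.

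METTL16 is an RNA methyltransferase that places N6-methyladenosine on a few structured RNAs, among them the mRNA of MAT2A, the enzyme that makes the methyl donor S-adenosylmethionine. Most m6A on mRNA is placed by the METTL3 and METTL14 complex, often near stop codons and in the last exon. Genes on opposite strands that end towards each other can share their last exons, so that a window near the end of one transcript lies across from the end of its neighbour. A stranded library records which strand each read came from. Counting that uses this record takes different reads for genes on opposite strands, while counting that does not takes the same reads for every base they share. The library kit was a stranded one, per the labels, and the sources used here do not give how counting treated strand.

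The plainest case by position, though not by value, is a pair of microRNA hairpins encoded on opposite strands of the same bases of chromosome 19. MIR3190 on the plus strand (chr19:47226942-47227021) and MIR3191 on the minus strand (chr19:47226944-47227019) were each a single window in all 4 of the authors' deposited tables. Their sequences are shown because the windows share 76 bases of GRCh38, over which either hairpin is the exact reverse complement of the other. Capitals mark those shared bases, written from RefSeq (GRCh38.p14) in the direction of each transcript.
MIR3190: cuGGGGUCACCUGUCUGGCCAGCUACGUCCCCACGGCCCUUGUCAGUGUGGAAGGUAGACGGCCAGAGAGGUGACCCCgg
MIR3191: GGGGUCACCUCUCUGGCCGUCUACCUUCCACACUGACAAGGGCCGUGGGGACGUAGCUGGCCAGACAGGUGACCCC
The mature forms, with the seed (bases 2 to 8) in capitals, show that the strands carry different microRNAs.
hsa-miR-3190-3p: uGUGGAAGguagacggccagaga
hsa-miR-3191-3p: uGGGGACGuagcuggccagacag
hsa-miR-3191-5p: cUCUCUGGccgucuaccuucca

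The fold enrichment of IP over input at MIR3190 was 2.04, 2.54, 1.82 and 2.07 in the authors' deposited tables, in the order sgMETTL16-1 replicate 1 and 2, then sgMETTL16-2 replicate 1 and 2, which is kept throughout. At MIR3191 the deposited tables gave 2.47, 3.38, 2.28 and 2.07. The log2 fold change of knockout against control was 1.91, 0, 0.91 and -1 at MIR3190 and 1, -0.58, 0.32 and -1.58 at MIR3191, in the same deposited tables. A negative value is read here as less m6A in the knockout, which the tables do not state. The hairpins went up and down together between tables, with MIR3190 higher than MIR3191 by 0.58 to 0.91 each time, and neither row was called or enriched in any of them. This gap was wider than in most pairs that, like these, shared 0.9 or more of the longer row. The median absolute difference of such pairs was 0.027 to 0.044 per deposited table. A row is called where its deposited FDR for the difference was under 0.05, and enriched where its deposited FDR of IP over input was under 0.05.

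Sequence could be set beside the windows only where they overlapped a RefSeq promoter window, 250 bases before to 50 after a gene start. Between 85 and 117 of the pairs in each deposited table had at least 30 shared bases there. GGACT, a common form of the m6A consensus, was searched on both strands, and it lay on either strand of 44.2% of all 35116 promoters of the same 300 bases, so a match is unremarkable. The stretches below were inside shared bases and are written along the strand that holds the motif, which is in capitals. They are shown because they make plain that a motif on one strand lies inside the windows of both genes.
TBCB and POLR2I, plus strand, chr19:36115219-36115247: tttacccttcgcGGACTgggcgagctctt
TSSK2 and DGCR14, minus strand, chr22:19131187-19131215: gagtgggggcggGGACTgggctgagggag
ETFDH and C4orf46, plus strand, chr4:158672174-158672202: gctccccggctgGGACTtggagtccctta
ETFDH and C4orf46, minus strand, chr4:158672182-158672210: gggaaagataagGGACTccaagtcccagc
TBCB, a tubulin folding cofactor, and TSSK2, a testis kinase, held this stretch in all 4 deposited tables. ETFDH, an electron transfer enzyme of mitochondria, and C4orf46 held the motif on both strands in 3 deposited tables, so there the letters name no strand. In the TSSK2 and DGCR14 rows with the stretch shown, the authors' deposited fold enrichment was equal on both strands in every table, at 5.20, 4.23, 4.56 and 2.07. The log2 fold changes of these rows were equal in the deposited sgMETTL16-1 tables (0.32 and 0.32, then 3.58 and 3.58) and apart in the sgMETTL16-2 tables (-1.42 and -2, then 0.64 and 2). Another pair of rows of TSSK2 and DGCR14 differed by 0.995 across strands in the deposited sgMETTL16-1 replicate 1 table.

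Each table held about the same number of such windows. The authors' deposited tables had 79372, 71406, 75788 and 70002 rows, of which 1690, 1649, 1663 and 1653 (2.13%, 2.31%, 2.19% and 2.36%) were in an opposite-strand pair. They made 885, 868, 866 and 872 pairs of rows, or 3491 summed, between 605, 621, 610 and 613 pairs of genes. The median number of shared bases was 107 to 111, and the most was 2093. A total of 903 gene pairs occurred, 340 of them in all 4 deposited tables, 158 in 3, 210 in 2 and 195 in 1.

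Paired windows were longer than others and more often enriched. Their median length was 179 to 180 bases, against 121 for the remaining rows of the deposited tables. A pair needs a minimum of shared bases, which longer rows meet more easily, so the choice of rows itself favours length. The share enriched was 14.8%, 19.3%, 17.7% and 19.9%, against 7.95%, 11.7%, 10.1% and 12.1% of the remaining rows, from the authors' deposited FDR. The median absolute log2 fold change of paired rows was 0.36 to 0.42, below the 0.44 to 0.58 of the remaining rows. Neither the share enriched nor the fold change was compared at equal length, so any part of length in them was not tested. No test across rows was made of these differences, because rows of a table share libraries and the deposited tables hold no value per library. Depth per library is unknown for the same reason.

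Most pairs came from genes that end towards each other. By RefSeq gene ends, 2072 of the 3491 pairs were tail to tail, 440 were head to head, where genes start away from each other and overlap at their starts, and 412 were nested, with 1 gene inside the other. In 181 pairs the RefSeq genes did not overlap although the deposited windows did, as at TBCB and POLR2I, and in 386 the ends of a gene were not matched. Of the 1716 gene names, 1284 matched a protein-coding gene, 276 a long non-coding RNA and 14 a microRNA, and 188 names ended as antisense RNAs do. Pairs with an antisense RNA made up 781 of the 3491. Tail-to-tail pairs had both rows enriched in 13.6% to 17.1% of cases per deposited table, and head-to-head pairs in 4.40% to 15.4%.

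Across strands, the values of a pair were close. Spearman's rho between the log2 fold changes of the plus-strand and the minus-strand row was 0.655 to 0.708 in the authors' deposited tables, over 866 to 885 pairs each. For the fold enrichment it was 0.662 to 0.75. The median absolute difference in log2 fold change was 0.18 to 0.22, and in 671 of 3491 pairs (19.2%) the rows had opposite signs. These correlations are descriptions: the points share libraries and depth within a table, and a row could enter up to 3 pairs.

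A yardstick came from neighbouring windows of 1 gene that share no base, 236427 pairs in the deposited tables. Their rho of the log2 fold change was 0.057 to 0.159, the median absolute difference was 0.64 to 0.71, and 39.6% had opposite signs. These neighbours lay at any distance, 149662 of the pairs within 1000 bases. Windows of different genes on opposite strands were thus closer in value than neighbouring windows of the same gene, though the latter cover other bases. Where both rows of an opposite-strand pair were enriched, 461 pairs, the median absolute difference was 0.10 (the median of the deposited tables), and rho was 0.653 or higher in each deposited table. For neighbouring windows of 1 gene that were both enriched, 6549 pairs, that difference was 0.24, smaller than for all neighbours, and rho was 0.097 to 0.347.

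How close the rows came followed how much they overlapped. Overlap is given as shared bases over the length of the longer row. Below a share of 0.25 (547 pairs) rho of the log2 fold change was 0.169 to 0.357 in the deposited tables. It was 0.431 to 0.571 from 0.25 to 0.5, 0.742 to 0.803 from 0.5 to 0.75, and 0.781 to 0.887 from 0.75 to 0.9. At a share of 0.9 or more (565 pairs) it was 0.945 to 0.972, with a median absolute difference of 0.027 to 0.044. In 195 of those 565 pairs the authors' deposited log2 fold change was the same number on both strands, to the digits deposited.

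**Figure D1:**
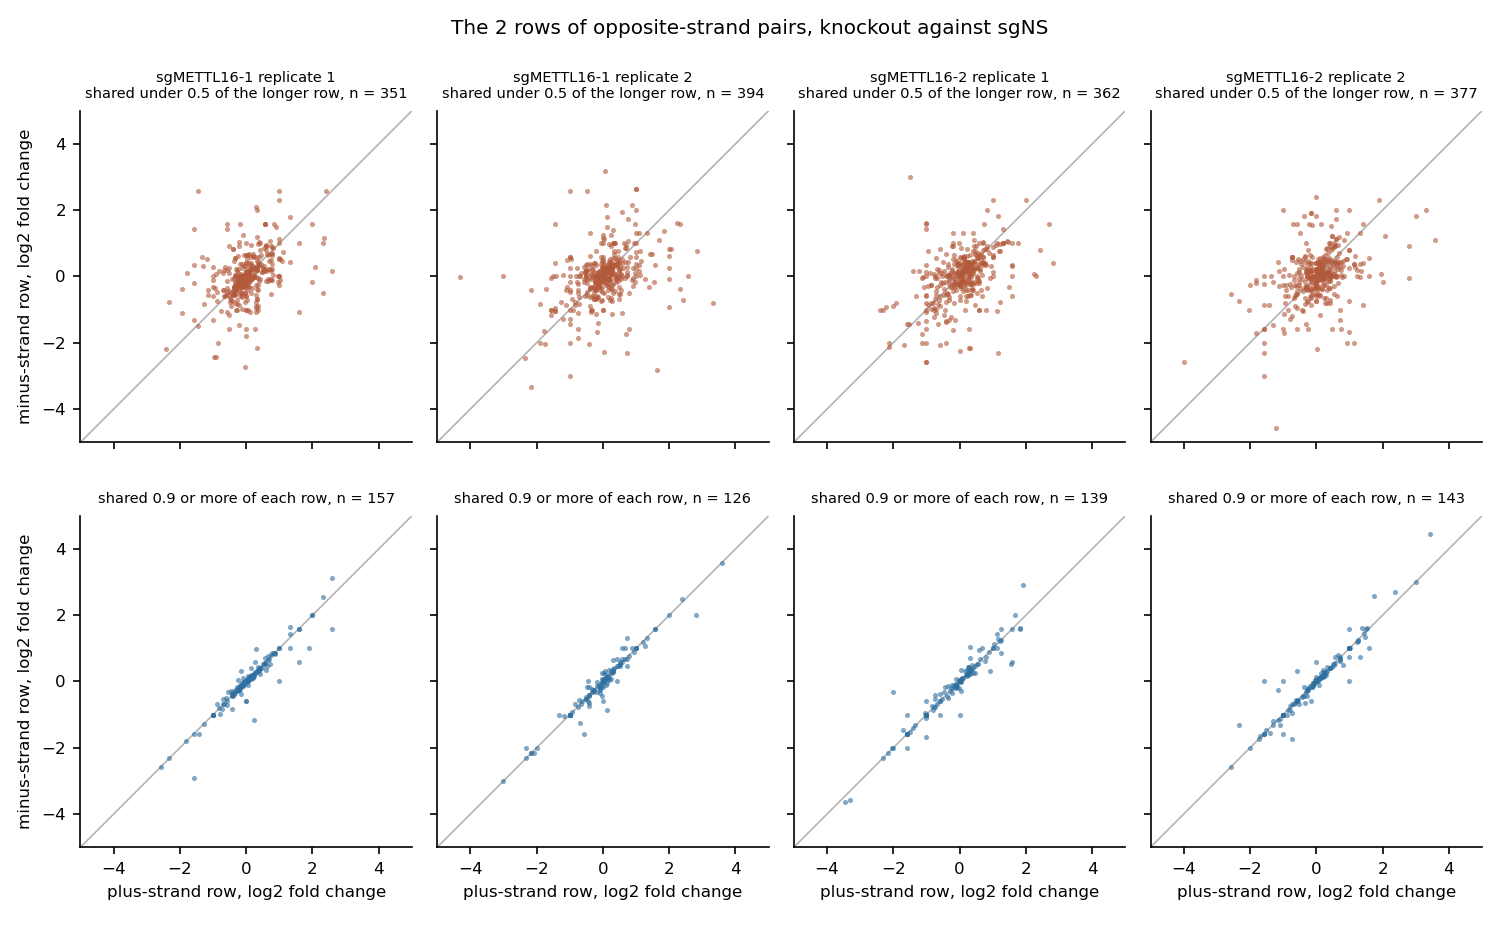
Log2 fold change of knockout against sgNS in the plus-strand row (x axis) and the minus-strand row (y axis) of each opposite-strand pair, 1 column of panels per deposited table, with the grey line marking equal values. The upper panels, with less than 0.5 of the longer row shared, scatter widely (rho 0.366 to 0.477), while in the lower panels, with 0.9 or more shared, the points lie along the line (rho 0.945 to 0.972).

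Overlapping rows of different genes on the same strand serve as a comparison, because no record of strand can part their reads. There were 7625 such pairs in the deposited tables, and they overlapped more, so they were compared at the same share. Their rho of the log2 fold change was 0.956 to 0.990 at a share of 0.9 or more, 0.819 to 0.938 from 0.75 to 0.9, and 0.673 to 0.875 from 0.5 to 0.75. For the log2 fold change, the ranges of the opposite-strand and same-strand pairs met in each of the 5 classes of overlap. The rows of same-strand pairs were nevertheless equal more often: at 0.9 or more with blocks that were not identical, 64.8% of 4070 same-strand pairs had the same deposited log2 fold change, against 31.7% of 540 opposite-strand pairs.

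**Figure D2:**
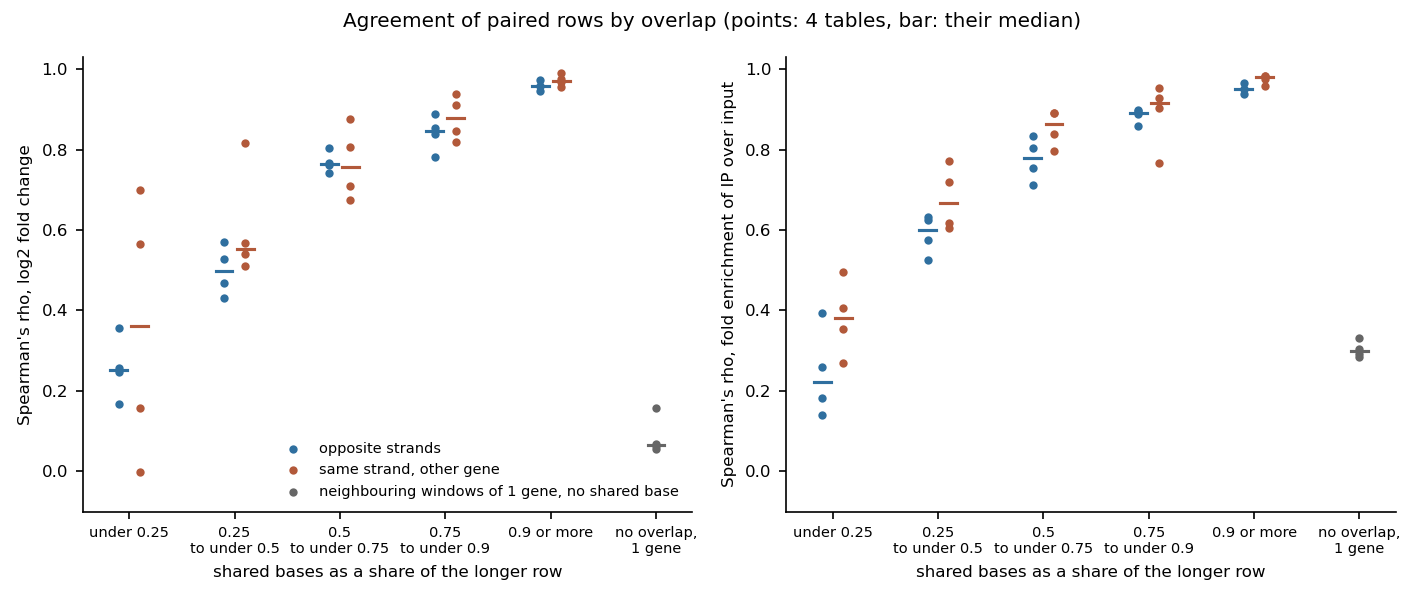
Spearman's rho between paired rows, for the log2 fold change (left) and the fold enrichment (right), by shared bases as a share of the longer row. Each point is 1 of the 4 deposited tables and each bar is their median. Opposite-strand pairs (blue) rise from a median of 0.252 to 0.958 on the left, same-strand pairs of other genes (brown) from 0.361 to 0.971, and neighbouring windows of 1 gene (grey) have a median of 0.065.

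Windows with identical blocks on both strands were the sharpest comparison. The authors' deposited tables held 25 such pairs, 7, 5, 7 and 6 per table. In 24 of them the log2 fold change was the same number on both strands, 3 of these at 0, and in 23 the fold enrichment was the same. On the same strand, 1142 of 1166 pairs with identical blocks had the same deposited log2 fold change. SNRK, a kinase related to AMPK, and SNRK-AS1 had such windows in all 4 deposited tables. In the sgMETTL16-1 replicate 2 table they had 3 of them, with log2 fold changes of -3.00, 0.58 and -2.17, each shared by SNRK and SNRK-AS1.

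The widest windows of SNRK and SNRK-AS1 in each table differed by at most 1 base at either end, and were enriched in every table. In the sgMETTL16-1 replicate 1 table the deposited window of SNRK was 900 bases (chr3:43347727-43348626) and that of SNRK-AS1 was 899. The authors' deposited log2 fold changes of SNRK were 0.16, 0.31, 0.24 and 0.11, and those of SNRK-AS1 were 0.16, 0.31, 0.24 and 0.11. Their fold enrichments in the deposited tables were 2.29, 2.58, 2.35 and 2.39 on either strand. The largest gap between the strands was 0.006, in the sgMETTL16-1 replicate 2 table, and no row of theirs was called.

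The exception among identical windows was STARD7, a lipid transfer protein of mitochondria, with STARD7-AS1, whose genes overlap at their starts. Over 210 identical bases (chr2:96208416-96208625) in the sgMETTL16-1 replicate 1 table, the deposited log2 fold changes were 0.84 for STARD7-AS1 and 0.86 for STARD7, and the fold enrichments were 1.32 and 1.23. CTNS, a cystine transporter of the lysosome, and P2RX5-TAX1BP3, a read-through gene, had an equal log2 fold change of 0.55 over 121 identical bases, but deposited fold enrichments of 1.15 and 1.09. The other identical pairs included BZRAP1-AS1 with RNF43, a ubiquitin ligase of WNT signalling, in all 4 deposited tables, FUT2, a fucosyltransferase, with LOC105447645 in 3, and RBMS2 with BAZ2A, a nucleolar remodelling factor, in 3. Many of these values are ones that small counts give, such as -1, 1 and 1.58, and the reads behind them are unknown.

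Between replicate tables the same row moved more than the strands lay apart. For sgMETTL16-1, 633 of the 1690 paired rows of the replicate 1 table were found again in replicate 2, sharing at least 0.5 of the bases of each, and for sgMETTL16-2 it was 676 of 1663. Their median absolute difference in log2 fold change between replicate tables was 0.43 and 0.41. In the 235 and 249 pairs of which both rows were found again, the rows differed across strands by a median of 0.14 and 0.16 in the deposited replicate 1 tables. The strand difference in replicate 1 was smaller than the replicate difference of the plus-strand row in 76.2% and 71.1% of these pairs. In the 41 pairs of each guide with a share of 0.9 or more, the deposited values of the strands differed by a median of 0.03 and 0.05 in replicate 1. Those of the plus-strand row differed between replicates by a median of 0.59 and 0.37.

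**Figure D3:**
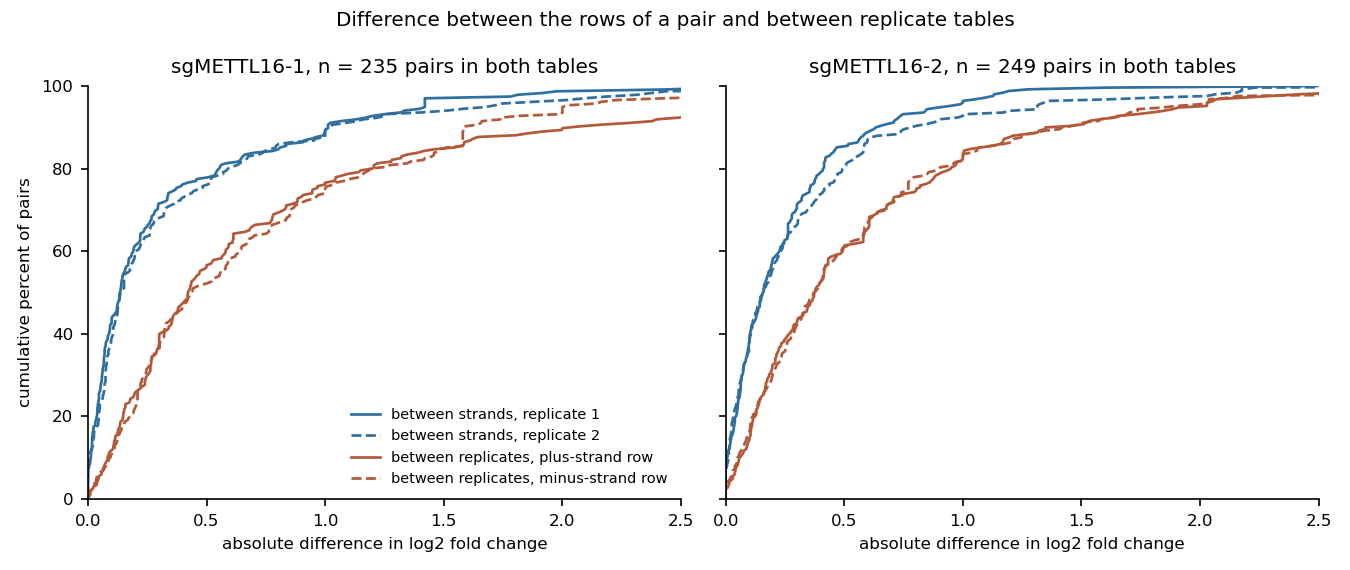
Cumulative percent of opposite-strand pairs (y axis) by absolute difference in log2 fold change (x axis), between the rows of a pair within a deposited table (blue, 1 line per replicate) and between replicate tables for the same row (brown, 1 line per strand). For both guides the blue lines lie to the left of the brown lines, with medians of 0.14 to 0.16 between strands, over 235 pairs for sgMETTL16-1 and 249 for sgMETTL16-2.

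Few paired rows were called. Rows called lower numbered 6, 5, 20 and 3 of the 1690, 1649, 1663 and 1653 paired rows, which is 0.355%, 0.303%, 1.20% and 0.181%. The share of all rows called lower in the authors' deposited tables was 0.281%, 0.167%, 0.965% and 0.149%. Paired rows called higher numbered 0, 2, 32 and 8, or 0%, 0.121%, 1.92% and 0.484%, and the share of all rows called higher in the deposited tables was 0.0743%, 0.583%, 0.875% and 0.586%. The paired rows lay a little above the background among lower calls in each table, on few rows. A place called on both strands counts once for each row, as at MAT2A and GGCX in sgMETTL16-1 replicate 1. The paired rows were also more often enriched, as given above. What part double counting or enrichment had in the lower calls was not tested. Among higher calls the paired rows lay above the background in the sgMETTL16-2 replicate 1 table and below it in the other 3.

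Most pairs with a called row had the same sign on both strands, as most of all pairs did. In 67 pairs, 4 tables summed, at least 1 row was called, and 45 of them were in the sgMETTL16-2 replicate 1 table. Both rows were called in 19 pairs, always in the same direction, and 0 pairs had rows called in opposite directions. Of the 48 pairs with 1 called row, the other row had the same sign in 40, lay within 0.25 in 22 and was over 1 away in 7. Over all 3491 pairs, 19.2% had opposite signs and the median absolute difference was 0.18 to 0.22 per deposited table. Pairs with a call were thus not shown to be closer than other pairs, and 1 called row could enter more than 1 of them. The deposited FDR of the uncalled row was 0.0513 at the lowest and 0.553 at the median. At a share of 0.9 or more both rows were called in 4 of 6 pairs, and at a share under 0.5 in 5 of 41. Without the sgMETTL16-2 replicate 1 table, both rows were called in 18.2% of the pairs with a call, against 28.4% with it.

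MAT2A was the gene pair with calls in the most tables. MAT2A lies on the plus strand of chromosome 2 and ends towards GGCX, the vitamin K dependent gamma-glutamyl carboxylase. In the sgMETTL16-1 replicate 1 table the deposited windows were chr2:85544625-85545161 for MAT2A and chr2:85544780-85545169 for GGCX, which share 382 bases. The authors' deposited log2 fold changes were -0.71, -0.81, -0.73 and -0.61 for MAT2A and -0.70, -0.73, -0.64 and -0.68 for GGCX. MAT2A was called lower in the first 3 deposited tables (FDR 5.37e-05, 0.0151 and 7.76e-05) and GGCX in the sgMETTL16-1 replicate 1 table and both sgMETTL16-2 tables (FDR 0.00295, 0.00891 and 0.0427). All 8 values lay between -0.81 and -0.61, so the row of GGCX gave a decrease of like size to that of the known METTL16 target across from it. These rows were enriched only in the sgMETTL16-2 replicate 1 table, at fold enrichments of 3.04 for MAT2A and 4.18 for GGCX. Neither was enriched in any other deposited table. MAT2A and GGCX were also the single gene pair with both rows called in more than 1 deposited table.

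Other pairs also had both rows called lower. ATP6V1C2, a subunit of the vacuolar proton pump, and PDIA6, a disulfide isomerase of the endoplasmic reticulum, had deposited log2 fold changes of -1.12 and -1.06 in the sgMETTL16-2 replicate 1 table, with an FDR of 7.94e-11 in both rows. Neither was enriched there, and in the other 3 deposited tables their values were between -0.34 and -0.16. AHSA2, a co-chaperone gene, and USP34, a deubiquitinase, were at -0.81 and -0.86 in that deposited table. SUMF2 and PHKG1, the latter a subunit of phosphorylase kinase, were at -0.94 and -0.93 in the sgMETTL16-1 replicate 2 table and at 0.21 and 0.14 at neighbouring windows of the sgMETTL16-2 replicate 1 table, as deposited. AGBL5, a carboxypeptidase that trims tubulin, and OST4, a subunit of the oligosaccharyltransferase, were both called in the sgMETTL16-1 replicate 1 table at -0.49 and -0.40. OST4 alone was called in the sgMETTL16-2 replicate 1 table, at a deposited FDR of 0.0129, where AGBL5 stood at 0.0513 with the lower value of -0.46 against -0.33. The pairs VRK2 and FANCL, at -0.91 and -1.21, and MRPS18C and FAM175A, at -1.71 and -1.45, were outside the naming rule and lay further apart in the deposited sgMETTL16-2 replicate 1 table.

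The pairs named by rule that had both rows called higher had them in the sgMETTL16-2 replicate 1 table. CEBPB, a myeloid transcription factor, and CEBPB-AS1 were at 0.49 and 0.65 (deposited FDR 1.23e-08 and 3.02e-06), sharing 502 bases. TMPO, a lamina-associated protein, and TMPO-AS1 were at 0.52 and 0.56, and AGAP2-AS1 and AGAP2, a GTPase-activating protein, were at 1.59 and 1.02, in the same deposited table. NCAPH2, a condensin subunit, and SCO2, a copper chaperone of cytochrome oxidase, had deposited values of 0.73 and 0.79 there and of 0.39 to 0.65 in the other 3 tables. TMEM120B and RHOF, a small GTPase, were at 0.42 and 0.42, over 958 shared bases. CD3EAP, an RNA polymerase I subunit, and ERCC1, a DNA repair nuclease subunit, were at 0.40 and 0.35, and SPNS2, a sphingosine phosphate exporter, and MYBBP1A, a nucleolar protein, at 0.56 and 0.44, as deposited. SNX22, a sorting nexin, and PPIB, a cyclophilin of the secretory pathway, were outside that rule and had both rows called at 0.18 and 0.17 in the deposited sgMETTL16-2 replicate 2 table. MZT2B with SMPD4 (0.26 and 0.43) and LOC100128494 with NUMA1 (0.32 and 0.33) were also outside the rule and called higher on both strands in the deposited sgMETTL16-2 replicate 1 table.

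**Figure D4:**
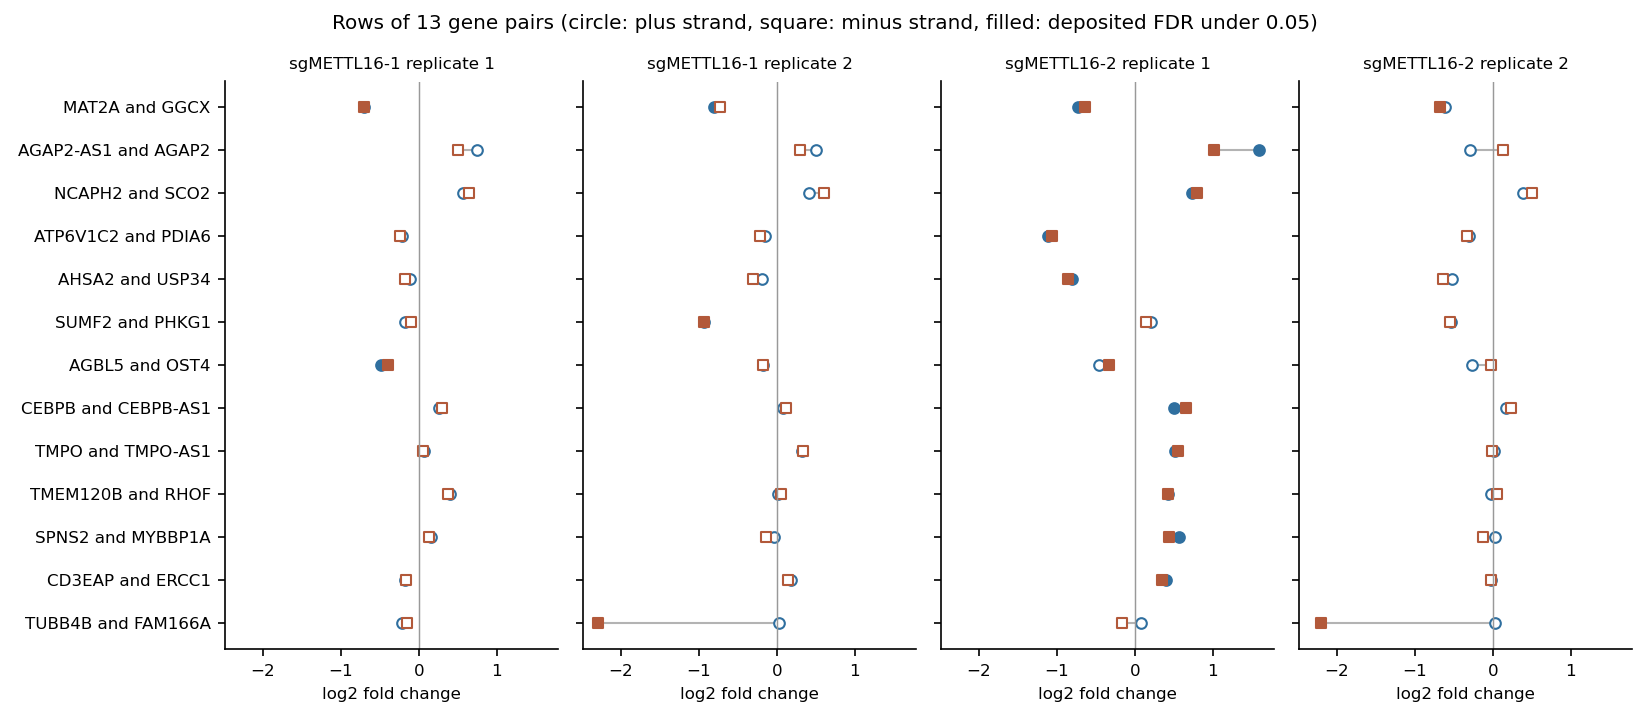
Log2 fold change (x axis) of the plus-strand row (circle) and the minus-strand row (square) of 13 gene pairs in each of the 4 deposited tables, with filled symbols for a deposited FDR under 0.05 and a grey line joining the rows. In 12 pairs the symbols lie close together, with the largest gaps at AGAP2-AS1 and AGAP2, while FAM166A stands at -2.29 and -2.20 in the replicate 2 tables with TUBB4B near 0.

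TUBB4B and FAM166A were far apart in 2 tables. Among gene pairs found in at least 3 deposited tables, with both rows enriched in at least 1, theirs was the largest mean absolute difference in log2 fold change, at 1.21. TUBB4B is a beta-tubulin expressed in most cells, and FAM166A is known from sperm and cilia. In the sgMETTL16-1 replicate 2 table, the deposited window of FAM166A (chr9:137243583-137243759) shared 125 of its 177 bases with that of TUBB4B (chr9:137243324-137243707). In the 2 replicate 1 tables FAM166A stood at -0.15 and -0.16 and TUBB4B at -0.22 and 0.08. In the replicate 2 tables the authors' deposited values were -2.29 and -2.20 for FAM166A (FDR 3.16e-12 and 1.20e-10) and 0.02 and 0.03 for TUBB4B, with neither TUBB4B row called. The fold enrichments of the same rows were almost equal, at 1.69 and 1.73 in sgMETTL16-1 replicate 2 and 1.86 and 1.86 in sgMETTL16-2 replicate 2. In the latter deposited table all 119 bases of the FAM166A window lay inside that of TUBB4B. The replicate 2 tables may share sgNS libraries, so they are not independent. Beta-tubulin genes have near-identical copies whose reads counting could split, and any part of this in the gap was not tested.

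Other wide gaps were named by the same rule. TBCB and POLR2I, an RNA polymerase II subunit, had deposited log2 fold changes of 0.63 and 0.68 in sgMETTL16-1 replicate 1 but 0.69 and -1.75 in sgMETTL16-1 replicate 2, sharing 117 bases in both. AP4M1, an adaptor complex subunit, was above TAF6, a subunit of TFIID, in all 4 deposited tables, by 0.46 to 1.19. GTF3A, a 5S rRNA transcription factor, was above MTIF3, a mitochondrial initiation factor, in its 3 deposited tables, and RNF123 below GMPPB, a sugar nucleotide enzyme, in its 3. GTF3A with MTIF3 and RNF123 with GMPPB shared 71 and 54 bases, near the least that makes a pair.

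The threshold of 50 bases did not mark a step. Just inside it, at 50 to 59 shared bases, there were 52 to 87 pairs per deposited table with a rho of the log2 fold change of 0.477 to 0.551. Just outside, at 40 to 49 bases, there were 40 to 48 pairs with a rho of 0.545 to 0.663.

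Fold enrichment and log2 fold change did not always part together. VIM, the intermediate filament vimentin, and VIM-AS1 overlap at their starts. Their deposited fold enrichments were 1.38 and 6.84 in sgMETTL16-2 replicate 1, and 1.32 and 7.61 in sgMETTL16-1 replicate 2. The log2 fold changes were 0.62 and 0.53 in the former deposited table and -0.02 and -0.01 in the latter. LOC101928120 and SHC1, an adaptor of receptor kinases, had deposited fold enrichments of 11.6 and 1.47 in sgMETTL16-2 replicate 2 with log2 fold changes of 0.30 and 0.29. MYL5, a myosin light chain, and MFSD7 had 1.16 and 6.76 in sgMETTL16-1 replicate 2, and MRPS2, a mitochondrial ribosomal protein, and LOC101928525 had 1.20 and 6.76 in the same deposited table. In each of these cases the row with the higher fold enrichment was the longer one, with most of its bases outside the shared ones.

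Antisense RNAs lay about as close to the genes they face as the rows of all opposite-strand pairs did. Of the 1494, 1349, 1412 and 1409 deposited rows of antisense RNAs, 196, 186, 185 and 186 were in an opposite-strand pair with at least 50 shared bases. Their median fold enrichment over pairs was 2.04 to 2.19, against 1.82 to 2.13 for their partners. The median signed difference in log2 fold enrichment was 0 in each deposited table, as it is where higher and lower values balance. The median absolute difference was 0.16 to 0.26, against 0.14 to 0.21 for all opposite-strand pairs. The log2 fold changes had opposite signs in 15.4% to 20.6% of the antisense pairs. Calls on antisense rows numbered 0, 1, 8 and 0, of which 0, 1, 5 and 0 were on paired rows. Over all rows, 282 of 79372, 535 of 71406, 1394 of 75788 and 514 of 70002 were called, a larger share than of all antisense rows in each deposited table. Among paired antisense rows, the 5 of 185 in sgMETTL16-2 replicate 1 were a larger share than of all rows. In the remaining deposited tables the share was smaller. The single antisense row called outside the sgMETTL16-2 replicate 1 table was HOXA10-AS, at -0.56 with an FDR of 0.0372 in sgMETTL16-1 replicate 2. HOXA10, a homeobox gene active in AML, was at -0.16 in the same deposited table, over 226 shared bases.

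The other antisense pairs with the highest fold enrichment were uncalled. Of them, only HOXA-AS3 and HOXA7 had both rows enriched by the deposited FDR in any table, so high ratios here need not mark enriched windows. LMLN-AS1 had a deposited fold enrichment of 17.1 in sgMETTL16-1 replicate 1, where LMLN, a metallopeptidase, had 6.68, and their log2 fold changes were 0.44 and 0.36. HOXA-AS3 and HOXA7, another homeobox gene of the myeloid programme, were at -0.41, -0.86, 0.89 and -0.83 and at -0.45, -0.69, 0.89 and -0.82 in the deposited tables. Both HOXA7 and its antisense RNA thus changed sign in sgMETTL16-2 replicate 1, together. ATP6V0E2, a proton pump subunit, and ATP6V0E2-AS1 were at -1, 1.32, -3.32 and 1 and at -1, 1.32, -3.58 and 1, as deposited, so the strands moved as 1 while the tables did not. HOXB-AS1 and HOXB3 were further apart, at 2.07 and 0.83 in sgMETTL16-1 replicate 2, and TRAF3IP2-AS1 and REV3L, a translesion polymerase, were at 1.62 and -2.81 in that deposited table over 67 shared bases. AFAP1-AS1, FAM13A-AS1, MATN1-AS1, PCOLCE-AS1 and THAP9-AS1 made up the rest.

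The gene lists are read against all gene names: 1716 of the 16417 names in any deposited table, 10.5%, were in a pair. Of 13 m6A writers, 12 had a deposited row and 2 were in a pair, METTL5 with SSB and RBM15B with VPRBP, while 0 of 2 erasers and 0 of 12 readers were. METTL5, which methylates ribosomal RNA, was called lower in sgMETTL16-2 replicate 1 at -1.17 (deposited FDR 0.00417), and SSB, the La RNA-binding protein, in sgMETTL16-1 replicate 1 at -0.38. Among the genes of S-adenosylmethionine metabolism MAT2A was in a pair, and of 27 AML and myeloid genes HOXA7, HOXA10 and CEBPB were, each in all 4 deposited tables. Of the 15 DNA repair genes on the list only FANCA was in a pair, with ZNF276, and neither of their rows was called in any deposited table. In sgMETTL16-2 replicate 1 their deposited fold enrichments were 2 for ZNF276 and 8.36 for FANCA, with log2 fold changes of 0.47 and 0.24.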

How the data were processed

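Input and m6A IP libraries of NOMO-1 cells with sgNS, sgMETTL16-1 or sgMETTL16-2 were sequenced, 2 of each kind. The submitters' processing notes name STAR and the build GRCh38. What called the windows, with which annotation and which sgNS libraries, is not given in the sources used here. Each of the 4 deposited tables gives, per the file headers, the fold enrichment of IP over input (a ratio), the log2 fold change of the difference and log10 p-values and FDRs, all used as deposited by the authors. The score columns deposited by the authors hold these log10 values. No value per library was used, so no test was made and depth is unknown.

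Blocks were intersected with Python 3.11.15, pandas 2.3.3 and numpy 2.4.6, and the overlap step was checked against a base-by-base count on simulated windows. A pair needs 50 shared bases. Deposited starts count from 0 and are printed from 1. Gene ends, promoters and microRNAs came from RefSeq tables for GRCh38.p14. 1619 of 1716 names had gene ends there. The members, the 6 gene lists and the rules were chosen with earlier results of these data known.

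Pairs were named by rule. These were MAT2A, up to 12 pairs with both rows called in the most tables, up to 6 each with the largest difference in log2 fold change and in fold enrichment (among pairs in at least 3 tables, both rows enriched in at least 1), up to 10 with an antisense RNA, up to 6 with identical blocks, and list members in all 4 tables. The microRNA and promoter pairs, CTNS with P2RX5-TAX1BP3, SSB with METTL5, SNX22 with PPIB, VRK2 with FANCL, MRPS18C with FAM175A, MZT2B with SMPD4 and LOC100128494 with NUMA1 were chosen after their values were seen. The alternatives were other overlaps, enriched rows, 1 pair of rows per gene pair, duplicate rows taken once, other thresholds, Pearson's correlation and leaving out a replicate. Some pairs that the rules name are not reported here.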

Additional observations from a re-analysis of the deposited data

How the results depend on the processing

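Closeness across strands depended on overlap and enrichment. At least 200 shared bases gave 700 pairs, a rho of 0.815 and a median absolute difference of 0.096, with both rows called in 45.5% of pairs with a call and 75 gene pairs in all 4 tables. A share of 0.9 or more gave 565 pairs, a rho of 0.958 for the log2 fold change and 0.951 for fold enrichment, a difference of 0.033 and 66.7%. Both rows enriched gave 461 pairs, 0.720, 0.570, 0.099, 43.2% and 49 gene pairs. The values as reported were 3491 pairs, 0.675, 0.675, 0.212, 28.4% and 340 gene pairs. Leaving out rows at 0, an alternative added after seeing the data, gave a rho of 0.704. Without replicate 1 or without replicate 2, 1740 to 1751 pairs, 480 to 514 gene pairs in every table left, and 11.1% to 34.7% with both rows called were found. Of 55 values under an alternative, 34 stayed within 1 SD over the tables, the 95% exact binomial interval of a share, or 1.5 times a count. Rows called in opposite directions numbered 0 under each alternative run. Each alternative only took pairs or calls away from a set that already held 0, so no other count was possible. These values are among the 34. No paired analysis was possible because the deposited tables hold no value per library. Rows at few reads cannot be told from deep ones, as depth is unknown.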
